A study of Mus musculus with 4 samples.

Results

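Beta-catenin, the proteins that destroy it and the proteins that work with it in the nucleus were followed through all array probes that the scanner files name for 10 genes. The rule takes them by name and uses no measured value, though the list was drawn up with earlier results of these data known: Ctnnb1 (beta-catenin), Apc, Axin1, Gsk3a, Gsk3b, Csnk1a1, Btrc, Tcf7l2, Bcl9 and Pygo2. They were represented by 27 of the 41174 non-control probes, whose files hold 27962 gene names in all, and 24 of the 27 probes passed the filter on dim signals, with at least 1 probe left for every gene. The 3 probes that did not pass are described with their genes.

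The series compared embryos of C57BL/6J mice that lack nucleoredoxin (genotype NRX-/-, the gene Nxn) with NRX+/+ embryos of the same strain, at stages E9.5 and E11.5 (E, embryonic day). By its title, the study is about how Wnt/beta-catenin signalling is maintained. Nucleoredoxin is a thioredoxin-related protein known to bind Dishevelled, a cytoplasmic relay of Wnt signals. The 4 groups of RNA were null and wild type at E9.5 and null and wild type at E11.5, each labelled once with Cy5 and once with Cy3, on 4 two-colour arrays. At each stage the null RNA was in Cy5 on replicate 1 and in Cy3 on replicate 2. Sample titles write KD for the null RNA. No further allele or agent is labelled, and the sources used here give neither how the null allele was made nor how many embryos an RNA came from. Nor do they state whether a stage's arrays hold separate extracts, so p-values measure only the spread between these arrays, which may be technical. The fits pooled most of that spread over all tested probes, so a p-value does not measure the SD printed beside it.

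In cells without a Wnt signal, the scaffold proteins Axin and APC bring beta-catenin to casein kinase 1 alpha and glycogen synthase kinase 3, and beta-TrCP marks the phosphorylated protein for degradation. A Wnt signal halts this destruction complex, and beta-catenin enters the nucleus, where it binds TCF/LEF factors and recruits BCL9 and Pygopus to switch on target genes. The pathway is regulated largely through protein stability, and an array measures only RNA. In mouse embryos it is known for its part in forming the body axis, the somites and the neural crest.

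Of the arrays as a whole, each carried 43379 non-control spots, 48.1% to 70.1% of probes were well above background by channel, and no spot of the 10 genes was saturated. All 4 arrays lay on 1 slide with 1 scan time. Nxn was lower in the null RNA on every array, with log2 ratios of null over wild type from -0.77 to -1.18 on probe A_51_P165870 and from -0.93 to -1.42 on A_52_P57013. The sources used here do not state whether these probes lie in the disrupted stretch of the gene. Markers of other cell types moved with genotype. At E9.5, 13 of 13 tested yolk sac visceral endoderm markers were lower in the null RNA (median log2 ratio -2.89), with a summed intensity of 16803 to 20438 against 166156 to 167881 in wild type. Also at E9.5, 9 of 9 heart muscle markers and 9 of 10 primitive red cell markers were lower, with medians of -1.58 and -0.54, and 9 of 10 neuronal markers were higher, with a median of 0.39. Summed intensity ran from 33217 to 38769 against 120050 to 120947 for heart muscle, from 228604 to 260307 against 407019 to 454974 for red cells, and from 42347 to 42423 against 32656 to 33161 for neurons, null against wild type. Of 5 tested placenta and decidua markers, 3 were higher and 1 was lower at E9.5. At E11.5, 9 of 10 red cell markers and 2 of 13 yolk sac markers were lower and 2 of 9 heart markers were higher. On its probe A_51_P145453, Xist was lower in the null RNA at E9.5 (-0.14 and -0.72, limma adjusted p = 4.13e-05) and higher at E11.5 (6.07 and 5.59). At E11.5 the Y-linked Ddx3y, Eif2s3y and Kdm5d were lower, and the Y-linked Zfy1 was not called (-0.008, limma adjusted p = 0.965). The part of these shifts in the ratios below was not tested, and in whole embryos fewer cells of a type and less RNA per cell cannot be told apart.

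Few probes of the 10 genes separated null from wild type. Ratios are log2 of null over wild type, and a probe was called when limma, fitted to all 24994 tested probes on the 4 arrays with a dye term, gave a Benjamini-Hochberg adjusted p under 0.05. At E9.5, 1 of the 24 probes was called higher, against 8.8% of all tested probes, and 2 were called lower, against 13.5%. At E11.5, 0 were called higher, against 3.16%, and 1 was called lower, against 5.31%. Those counts are near or below the background, and leaving out any 1 of the arrays gave 0 higher and 0 to 2 lower at E9.5 and 0 in either direction at E11.5. Ratio fits that left out an array also had no dye term. Of all calls at E9.5, 39.5% were higher, and this share was 24.8% with the scanner software's own log ratio and 22.4% with median centring. At E11.5 the share was 37.3%, against 25% and 53.7% under the same 2 settings. The median ratio of the 24 probes at E9.5 was 0.08 and that at E11.5 was -0.04, beside 0.00 and 0.01 for all tested probes. Their median absolute ratio was 0.10 and 0.07, beside 0.09 and 0.06 for all.

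**Figure D1:**
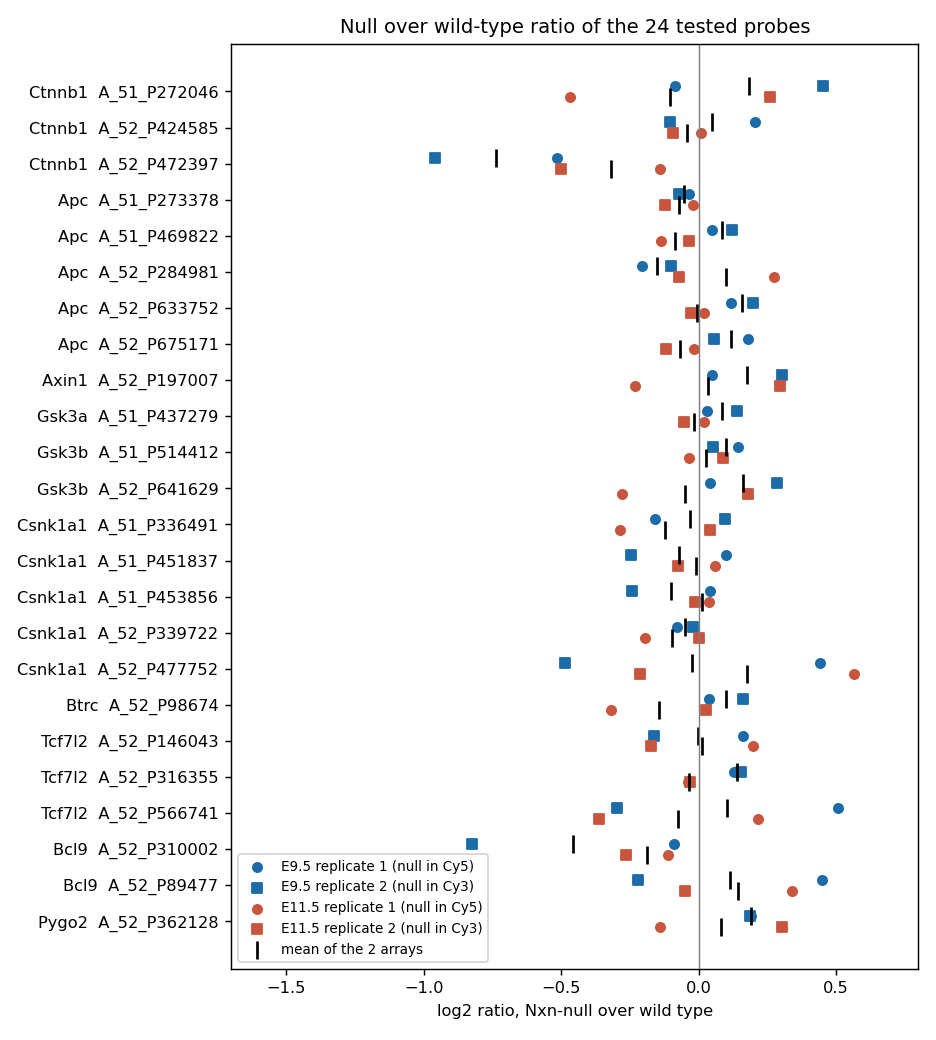
The log2 ratio of null over wild type (horizontal axis) is plotted for each of the 24 tested probes on each of the 4 arrays. Circles and squares mark the dye orientations, colours mark the stages and black ticks mark the mean of a stage's 2 arrays. Most means lie close to 0, and the Ctnnb1 probe A_52_P472397 lies below 0 on all 4 arrays, with means of -0.74 and -0.32.

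Across the 4 arrays, 3 of the 24 probes stood below 0 throughout, against 10.6% of all tested probes, and 0 stood above 0 throughout, against 7.67%. The 3 probes were Ctnnb1 A_52_P472397, Apc A_51_P273378 and Bcl9 A_52_P310002. The Bcl9 probe did so with the local background taken off each spot, but not with the scanner software's log ratio. That ratio was 0.77 on E9.5 replicate 2 and 0.05 on E11.5 replicate 2. When the 2 stage averages were the unit, the genotype effect shared by both stages was called for 0 of the 24 probes and for 0% of all tested probes by limma. At an unadjusted p under 0.05 there were 2 of the 24, Ctnnb1 A_52_P472397 (limma unadjusted p = 0.0117) and Bcl9 A_52_P310002 (limma unadjusted p = 0.0227). The Bcl9 value rests on the local background as well. Over the whole array there were 1883 of 24994 tested probes. With limma's trend and robust settings no probe reached an unadjusted p under 0.05, and with the 4 arrays taken as separate measurements 70 probes were called, none of them of these genes. The lowest adjusted p of any probe in the shared fit was 0.341.

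Beta-catenin links cadherins to the cytoskeleton at cell junctions and is the transcriptional effector of the pathway. Its 3 probes disagreed. The files tie A_51_P272046 and A_52_P424585 to the reference transcript NM_007614, and A_52_P472397 to AK020013, a cDNA clone that the files describe as coding for catenin beta.

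Probe A_52_P472397 was lower in the null RNA at both stages. Its log2 ratio was -0.52 on E9.5 replicate 1 and -0.96 on replicate 2, and the later stage gave -0.14 and -0.50. In single channels its log2 intensity at E9.5 was 10.37 and 10.14 in the null RNA against 10.88 and 11.09 in wild type. At E11.5 it was 10.67 and 10.41 against 10.80 and 10.91. The mean ratio was -0.74 at E9.5 (SD 0.31, n = 2 arrays, limma adjusted p = 3.25e-08), or 1.67-fold lower. At E11.5 it was -0.32 (SD 0.26, n = 2 arrays, limma adjusted p = 0.00201), or 1.25-fold lower. The difference between the stages was 0.42 (SE 0.09, limma adjusted p = 0.00345). That call was lost with the scanner software's log ratio (limma adjusted p = 0.180), with median centring (limma adjusted p = 0.730), without the dye term (limma adjusted p = 0.866) and without any one of the arrays. Leaving out replicate 1 or 2 of E9.5 gave 0.64 or 0.20, and leaving out replicate 1 or 2 of E11.5 gave 0.24 or 0.60. The E9.5 call was lost without E9.5 replicate 2 (-0.52, limma adjusted p = 0.343) and without the dye term (limma adjusted p = 0.0782). The E11.5 call was lost with the scanner software's log ratio (-0.36, limma adjusted p = 0.147) and with median centring (-0.19, limma adjusted p = 0.937). It was also lost without the dye term and without any one of the 4 arrays, in fits that had no dye term either. Leaving out either E9.5 array left the E11.5 mean at -0.32.

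The other pair of beta-catenin probes did not follow it. Probe A_51_P272046, printed at 10 spots per array, gave log2 ratios of -0.09 and 0.45 at E9.5, then -0.47 and 0.26 at E11.5. It read below 0 on both arrays with the null RNA in Cy5 and above 0 on both with it in Cy3, so the arrays of each stage disagreed in sign. Its 7 to 10 usable spots on an array had an SD of only 0.03 to 0.04, far less than the gap between arrays. The mean ratio was 0.18 at E9.5 (SD 0.38, n = 2 arrays, limma adjusted p = 0.0497) and -0.10 at E11.5 (SD 0.51, n = 2 arrays, limma adjusted p = 0.434), with a dye effect of -0.32 for Cy5 over Cy3. Without E9.5 replicate 2 the E9.5 mean was -0.09, and the call was lost under every alternative that changed the background correction or the normalization.

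Probe A_52_P424585 gave 0.21 and -0.11 at E9.5, then 0.01 and -0.09 at E11.5, and was called at neither stage (limma adjusted p = 0.634 and 0.799). Its log2 intensity in the 8 channels lay between 14.12 and 14.53. On each array it read higher than A_52_P472397 in the ratio, by 0.72 and 0.85 at E9.5 and by 0.15 and 0.41 at E11.5. A_51_P272046 also read higher than A_52_P472397 on 3 of the arrays, by 0.43 and 1.41 at E9.5 and by 0.76 on E11.5 replicate 2, but lower by -0.33 on E11.5 replicate 1. Both probes of the reference transcript had means above 0 at E9.5 and below 0 at E11.5, and neither was called lower at either stage.

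**Figure D2:**
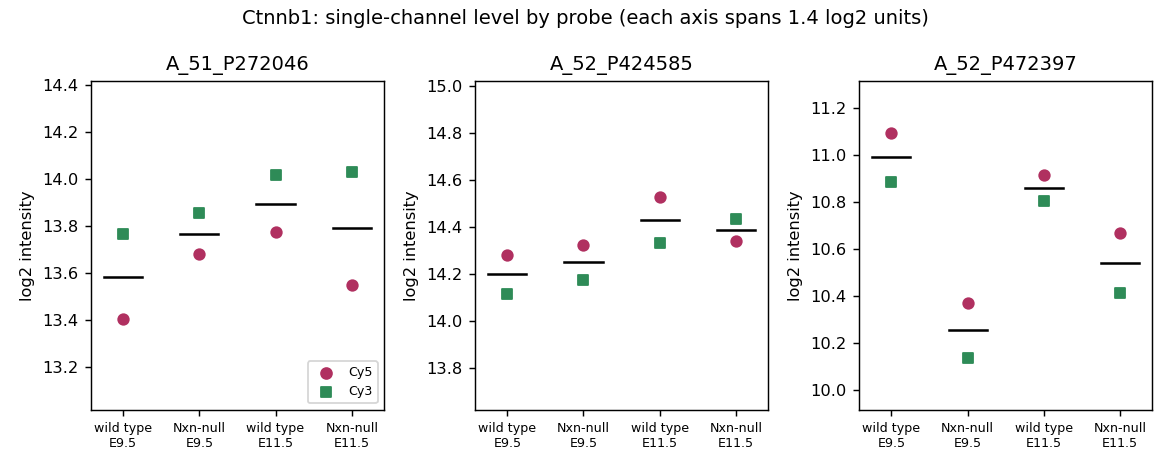
Single-channel log2 intensity of the 3 Ctnnb1 probes is plotted for each RNA, with 1 panel per probe. Circles are Cy5, squares are Cy3 and bars are the mean of the 2 arrays. With 2 values a group, null and wild type are separated at both stages on A_52_P472397 and overlap on the other panels. The share of all tested probes separated in this way was not counted.

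Of the 24 probes, 2 changed their ratio between the stages, both of Ctnnb1, against 11.7% of all tested probes. Besides A_52_P472397, this was A_51_P272046, whose ratio at E11.5 differed from that at E9.5 by -0.29 (SE 0.09, limma adjusted p = 0.0492). That difference turned to 0.08 without E11.5 replicate 1, was -0.017 without E9.5 replicate 2 and was not called under most other settings. Of all probes whose ratio differed between stages, 60.5% had the higher ratio at E11.5, against 79.2% with median centring.

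The scaffold proteins of the destruction complex showed no called difference between genotypes. Apc, a large tumour suppressor that holds beta-catenin in the complex, had 6 probes, of which 5 were tested. The 10-spot probe A_52_P675171 gave 0.18 and 0.06 at E9.5, then -0.02 and -0.12 at E11.5, with means of 0.12 and -0.07 (limma adjusted p = 0.203 and 0.633). Over the 5 probes the mean ratio ran from -0.15 to 0.16 at E9.5 and from -0.09 to 0.10 at E11.5. Both ends of the E9.5 range came from probes of the reference transcript NM_007462. Of these, A_52_P284981, at the low end, passed the filter only through wild type at E9.5, so its ratio there is not free of the filter. It was well above background on both arrays in that group and on only 1 of the 2 arrays in each other group. With the scanner software's log ratio its E9.5 mean was -0.75, also not called. A_51_P429446 was not tested, because it was well above background on at most 1 array in any group.

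Axin1, the scaffold that binds beta-catenin and its kinases, had 1 probe. Its log2 ratio was 0.05 and 0.30 at E9.5, then -0.23 and 0.30 at E11.5. The E9.5 arrays read above 0 and the E11.5 arrays lay on either side of it. The means of 0.18 and 0.03 did not pass (limma adjusted p = 0.0663 and 0.852).

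In the main fit the kinases gave small ratios as well. With the scanner software's log ratio the E9.5 means were larger, at 0.25 for Gsk3a and 0.17 and 0.24 for the Gsk3b probes, and were not called either. Gsk3a and Gsk3b code for the paired isoforms of glycogen synthase kinase 3, which phosphorylate beta-catenin. The Gsk3a probe gave 0.03 and 0.14 at E9.5, then 0.02 and -0.05 at E11.5, with means of 0.08 and -0.02 (limma adjusted p = 0.395 and 0.935). Of the Gsk3b probes, A_51_P514412 gave 0.14 and 0.05, then -0.03 and 0.09, and A_52_P641629 gave 0.04 and 0.29, then -0.28 and 0.18. The E9.5 ratios of all 3 glycogen synthase kinase probes were above 0 on both arrays, and none was called (limma adjusted p from 0.0836 to 0.395).

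Csnk1a1 codes for casein kinase 1 alpha, which places the first phosphate on beta-catenin. Its 5 probes had mean ratios from -0.10 to -0.02 at E9.5 and from -0.12 to 0.18 at E11.5, and none was called. The widest spread between arrays was that of A_52_P477752, tied to the cDNA AK152387, which gave 0.44 and -0.49 at E9.5, then 0.57 and -0.21 at E11.5. Its sign followed the dye on all 4 arrays, with a dye effect of 0.43 for Cy5 over Cy3 (limma adjusted p = 2.17e-06). Btrc, which codes for the beta-TrCP subunit that recognises phosphorylated beta-catenin, had 1 probe with 0.04 and 0.16 at E9.5, then -0.32 and 0.03 at E11.5. Its means of 0.10 and -0.15 were not called (limma adjusted p = 0.300 and 0.226). With the scanner software's log ratio the E9.5 mean of Btrc was 0.28, also not called.

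Among the nuclear partners, Bcl9 alone had a called ratio, and its sign depended on how the background was taken off. BCL9 bridges beta-catenin and Pygopus. Probe A_52_P310002, tied to the cDNA AK133757, gave -0.09 and -0.82 at E9.5, then -0.11 and -0.26 at E11.5. The E9.5 mean was -0.46 (SD 0.52, n = 2 arrays, limma adjusted p = 2.26e-04), and nearly all of it came from replicate 2. On that array the local background of the null channel beside the spot was 443.5, against 53, 95.5 and 172 in the Cy3 channel of the other arrays. The array medians of the Cy3 background were 54 to 59, and only 0.0507% of spots on that array had a Cy3 background of at least 400. With the array-wide background, an alternative added after this spot was seen, replicate 2 read 0.64 and the E9.5 mean was 0.26 (limma adjusted p = 0.0900). With the scanner software's log ratio it read 0.77 and the mean was 0.29 (limma adjusted p = 0.286). On E11.5 replicate 2, where the local background was 172, the ratio turned from -0.26 to 0.01 with the array-wide background. It was 0.05 there with the scanner software's log ratio.

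**Figure D3:**
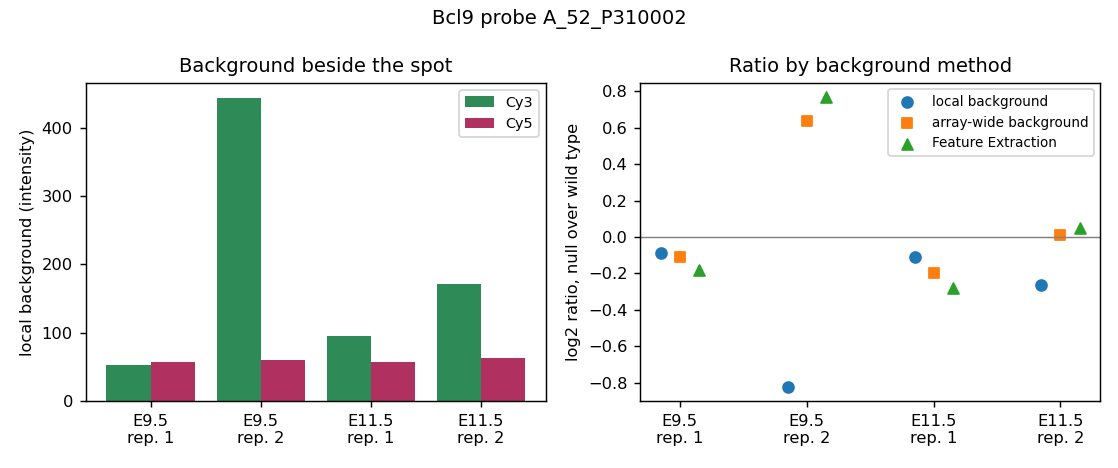
Left, the local background intensity beside the spot of Bcl9 probe A_52_P310002 in each channel of the 4 arrays, drawn as bars from 0. Right, its log2 ratio of null over wild type by background method. On E9.5 replicate 2 the Cy3 background was 443.5, and the ratio moved from -0.82 with the local background to 0.64 with the array-wide one.

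The second tested Bcl9 probe, A_52_P89477, gave 0.45 and -0.22 at E9.5, then 0.34 and -0.05 at E11.5. Its sign followed the dye, and its means of 0.11 and 0.14 were not called (limma adjusted p = 0.246 and 0.245). The third, A_51_P384700, was not well above background on any array in either genotype. No direction of Bcl9 between null and wild type held across its probes and settings.

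Tcf7l2 codes for TCF4, a DNA-binding partner of beta-catenin, and 3 of its 4 probes were tested. The mean ratio lay between -0.00 and 0.14 at E9.5 and between -0.07 and 0.01 at E11.5. A_52_P316355 was the most even, with 0.13 and 0.15 at E9.5, then -0.04 and -0.03 at E11.5, and it was not called (limma adjusted p = 0.125 and 0.829). With the scanner software's log ratio its E9.5 mean was 0.37, also not called. A_52_P494915 was well above background in 1 wild-type channel at E11.5 and in no other channel, and was not tested. Pygo2, which codes for a Pygopus protein that reads methylated histone H3, gave 0.19 and 0.19 at E9.5, then -0.14 and 0.30 at E11.5. Its E9.5 arrays were nearly equal, and the mean of 0.19 was not called (limma adjusted p = 0.0694).

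The stages were compared in a separate fit. Levels were compared as E11.5 minus E9.5 of single-channel log2 intensity, each RNA averaged over its 2 arrays, with the 2 genotypes as its replicate units. Whatever moves both dyes of an array alike is missing from that fit's error, which makes the p-values too small. Of the 24 probes, 7 were called higher at E11.5, against 19.5% of all tested probes, and 3 were called lower, against 22.9%. The probes called in either direction made up a share close to that of the whole array. The median stage difference of the 24 probes was 0.12, beside -0.04 for all tested probes, and the median absolute difference was 0.23 beside 0.22. Markers of other cell types also moved with stage: 9 of 10 neuronal markers (median 1.08) and 8 of 10 primitive red cell markers (median 0.86) were higher at E11.5, and 4 of 5 placenta and decidua markers were lower (median -1.14). In wild type, Xist on A_51_P145453 went from a mean log2 intensity of 13.04 at E9.5 to 7.32 at E11.5, and in the null RNA from 12.61 to 13.15. Yolk sac and heart muscle markers moved in opposite directions in the 2 genotypes. Summed intensity of yolk sac markers went from 16803 to 20438 at E9.5 to 79864 to 79877 at E11.5 in the null RNA. In wild type it went from 166156 to 167881 to 78910 to 87434. For heart muscle it rose to 91636 to 92985 in the null RNA and fell to 87286 to 89393 in wild type. The part of these shifts in the stage differences was not tested.

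All 6 tested probes of Tcf7l2, Bcl9 and Pygo2 were called higher at E11.5. Of 34 other nuclear partners tested, 6 were called higher and 9 lower, with a median of -0.07. Of all 77 other machinery genes, 13 were called higher and 20 lower, with a median of -0.04. Pygo2 had log2 intensities of 11.29 and 11.16 in the null RNA and 11.10 and 10.97 in wild type at E9.5. At E11.5 they were 11.77 and 11.91, and 11.91 and 11.61. The mean difference was 0.67 (SE 0.06, n = 2 genotypes, limma adjusted p = 0.00726), or 1.59-fold. The call held under each alternative run.

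Bcl9 rose by 0.74 on A_52_P310002 (SE 0.09, limma adjusted p = 0.00980), from 9.18 and 9.33 to 9.87 and 9.85 in wild type and from 9.09 and 8.51 to 9.75 and 9.59 in the null RNA. The call was lost only with Feature Extraction signals (0.62, limma adjusted p = 0.0573). The wild-type difference alone was 0.60. It leaves out the level of the null channel with the high local background, but the normalization took both channels of a spot together. On A_52_P89477 Bcl9 rose by 0.37 (SE 0.06, limma adjusted p = 0.0155), and this call was lost without E9.5 replicate 1 (0.25, limma adjusted p = 0.187) and without E11.5 replicate 2. The 3 Tcf7l2 probes rose by 0.29, 0.31 and 0.45 (limma adjusted p = 0.0258, 0.0374 and 0.0168). On A_52_P316355 the wild-type intensities were 7.91 and 7.87 at E9.5, then 8.24 and 8.33 at E11.5, and the null ones 8.04 and 8.02, then 8.20 and 8.30. The call of A_52_P566741 was lost with Feature Extraction signals (0.37, limma adjusted p = 0.0782). Each of the 3 calls was lost in at least 1 fit that left out an array, among them those without E9.5 replicate 1 and without E11.5 replicate 2 for A_52_P146043 and A_52_P316355, and those without E9.5 replicate 2 and without E11.5 replicate 1 for A_52_P566741.

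The promoter windows of these 3 genes are shown because their RNAs rose together with stage, and that of Ctnnb1 because beta-catenin, their common partner, was not called. RefSeq windows on build GRCm38.p6, from 250 bases before to 50 bases after an annotated start, were read for 6 of the 10 genes. They made 10 windows of 300 bases. A chromosome was left out of this search for windows of the 10 genes, but not out of the shares over all windows given below. The windows at the most upstream start of each gene are printed 5′ to 3′ on the gene's strand, with a further one at a downstream start of Tcf7l2. That further window holds the only TCF/LEF core found, and the downstream windows of Pygo2 and Ctnnb1 are not printed. Capitals mark any match on either strand, with overlapping matches counted separately. The motifs searched were the core of the TCF/LEF site, spelled CTTTGAT and also spelled CTTTGTT for its second form. The GC box was searched as GGGCGG and the element bound by factor NF-Y as CCAAT in the same windows. The element bound by the general factor TBP was searched as TATAAA and the E-box of basic helix-loop-helix factors as CACGTG. The windows are chr19:55741560-55741859 (plus strand) and chr19:55895071-55895370 (plus strand) for Tcf7l2, chr3:97227315-97227614 (minus strand) for Bcl9, chr3:89429964-89430263 (plus strand) for Pygo2 and chr9:120933150-120933449 (plus strand) for Ctnnb1.
Tcf7l2 upstream start: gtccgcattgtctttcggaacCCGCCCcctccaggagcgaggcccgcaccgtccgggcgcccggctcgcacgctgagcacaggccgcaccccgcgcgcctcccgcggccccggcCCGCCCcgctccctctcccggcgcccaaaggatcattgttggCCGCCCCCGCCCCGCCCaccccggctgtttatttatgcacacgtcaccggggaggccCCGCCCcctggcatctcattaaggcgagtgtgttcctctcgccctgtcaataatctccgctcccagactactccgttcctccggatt
Tcf7l2 downstream start: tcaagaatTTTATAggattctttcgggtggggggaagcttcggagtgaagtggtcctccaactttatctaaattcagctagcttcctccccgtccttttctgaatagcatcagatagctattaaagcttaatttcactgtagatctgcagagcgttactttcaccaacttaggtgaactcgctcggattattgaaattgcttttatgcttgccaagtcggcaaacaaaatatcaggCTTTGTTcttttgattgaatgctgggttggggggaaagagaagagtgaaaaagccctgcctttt
Bcl9: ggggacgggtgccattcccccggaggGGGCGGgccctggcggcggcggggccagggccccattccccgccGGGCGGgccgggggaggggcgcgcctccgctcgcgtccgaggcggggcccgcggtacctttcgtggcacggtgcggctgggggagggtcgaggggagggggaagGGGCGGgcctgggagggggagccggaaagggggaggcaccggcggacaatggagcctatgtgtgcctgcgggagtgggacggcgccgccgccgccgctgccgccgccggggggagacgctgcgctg
Pygo2: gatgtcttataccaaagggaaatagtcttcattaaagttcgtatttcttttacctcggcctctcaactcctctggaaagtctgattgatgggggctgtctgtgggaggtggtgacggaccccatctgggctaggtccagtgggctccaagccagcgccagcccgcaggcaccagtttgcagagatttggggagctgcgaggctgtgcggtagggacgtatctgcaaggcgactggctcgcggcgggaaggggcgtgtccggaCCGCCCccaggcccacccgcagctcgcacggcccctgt
Ctnnb1: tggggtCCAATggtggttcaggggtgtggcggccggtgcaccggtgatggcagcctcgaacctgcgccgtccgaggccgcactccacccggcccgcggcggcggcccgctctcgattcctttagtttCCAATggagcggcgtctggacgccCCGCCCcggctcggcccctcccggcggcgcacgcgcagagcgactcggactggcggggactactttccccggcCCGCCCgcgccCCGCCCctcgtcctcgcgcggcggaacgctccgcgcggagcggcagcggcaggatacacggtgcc

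The GC content of these windows was 70.0% and 42.0% for Tcf7l2, 80.7% for Bcl9, 60.7% for Pygo2 and 75.3% for Ctnnb1, beside a median of 52.7% over 32851 promoter windows. GC boxes numbered 6 in the upstream Tcf7l2 window, 3 in that of Bcl9, 1 in that of Pygo2 and 3 in that of Ctnnb1, and 35.7% of all windows hold at least 1. The Ctnnb1 window also held 2 CCAAT elements, and 37.4% of all windows hold at least 1. The downstream windows of Pygo2, not printed, held 3 GC boxes and 1 CCAAT element each. That of Ctnnb1, also not printed, held 3 GC boxes and 1 TATAAA. A core of the TCF/LEF site occurred once, as CTTTGTT in the downstream Tcf7l2 window, where TATAAA was also matched, and in none of the other 9 windows. Over all windows, 3.73% hold CTTTGAT, 5.85% hold CTTTGTT, 13.6% hold TATAAA and 7.15% hold CACGTG. These matches describe letters in a window and are not sites of binding.

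In the destruction complex the stage changes were divided. Csnk1a1 fell on 3 of its 5 tested probes. On A_52_P339722 its intensity went from 10.79 and 10.80 to 10.45 and 10.32 in wild type and from 10.72 and 10.78 to 10.25 and 10.32 in the null RNA. The mean fell by 0.44 on the log2 scale (SE 0.06, n = 2 genotypes, limma adjusted p = 0.0120), and this call held under each alternative in which the probe was fitted. A_51_P336491 fell by 0.27 (limma adjusted p = 0.0353), a call lost without E9.5 replicate 1, E11.5 replicate 1 or E11.5 replicate 2 (-0.29, -0.21 and -0.33) and with the array-wide background (limma adjusted p = 0.0502). A_52_P477752 fell by 0.49 (limma adjusted p = 0.0155), but its intensity at E9.5 differed between the arrays in both genotypes. On replicates 1 and 2 the null RNA read 13.04 and 11.28, and wild type read 12.59 and 11.76 on this probe. Without E9.5 replicate 1 its difference turned to 0.16 (limma adjusted p = 0.502), and the call was also lost without E11.5 replicate 2 (-0.35). The remaining Csnk1a1 probes gave -0.05 and -0.23 and were not called, but the latter, A_51_P453856, passed with quantile normalization (-0.24, limma adjusted p = 0.0431) and with Feature Extraction signals (-0.49, limma adjusted p = 0.0384).

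Apc rose on 1 of its 5 tested probes. A_51_P273378, tied to the cDNA AK137301, went from 10.44 and 10.49 to 10.95 and 11.08 in wild type and from 10.41 and 10.42 to 10.93 and 10.96 in the null RNA. The mean difference was 0.54 (SE 0.06, n = 2 genotypes, limma adjusted p = 0.00839), and it was called under each alternative in which the probe was fitted. The 4 probes of the reference transcript NM_007462 gave -0.04 to 0.11 and none was called, so the probes of Apc disagreed on the stage.

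The other members of the complex were not called. The stage difference was 0.21 for Axin1 (limma adjusted p = 0.0787), -0.23 for Gsk3a (limma adjusted p = 0.0539), 0.13 and 0.26 for the Gsk3b probes (limma adjusted p = 0.173 and 0.0673) and 0.11 for Btrc (limma adjusted p = 0.342). Gsk3a passed with quantile normalization (limma adjusted p = 0.0487), without E9.5 replicate 2 and without E11.5 replicate 1, and the Gsk3b probe A_52_P641629 passed without E11.5 replicate 1. The 3 Ctnnb1 probes gave 0.17, 0.18 and 0.08. On A_52_P472397 wild type fell by 0.13 and the null RNA rose by 0.29, the same difference between stages as in its ratio.

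**Figure D4:**
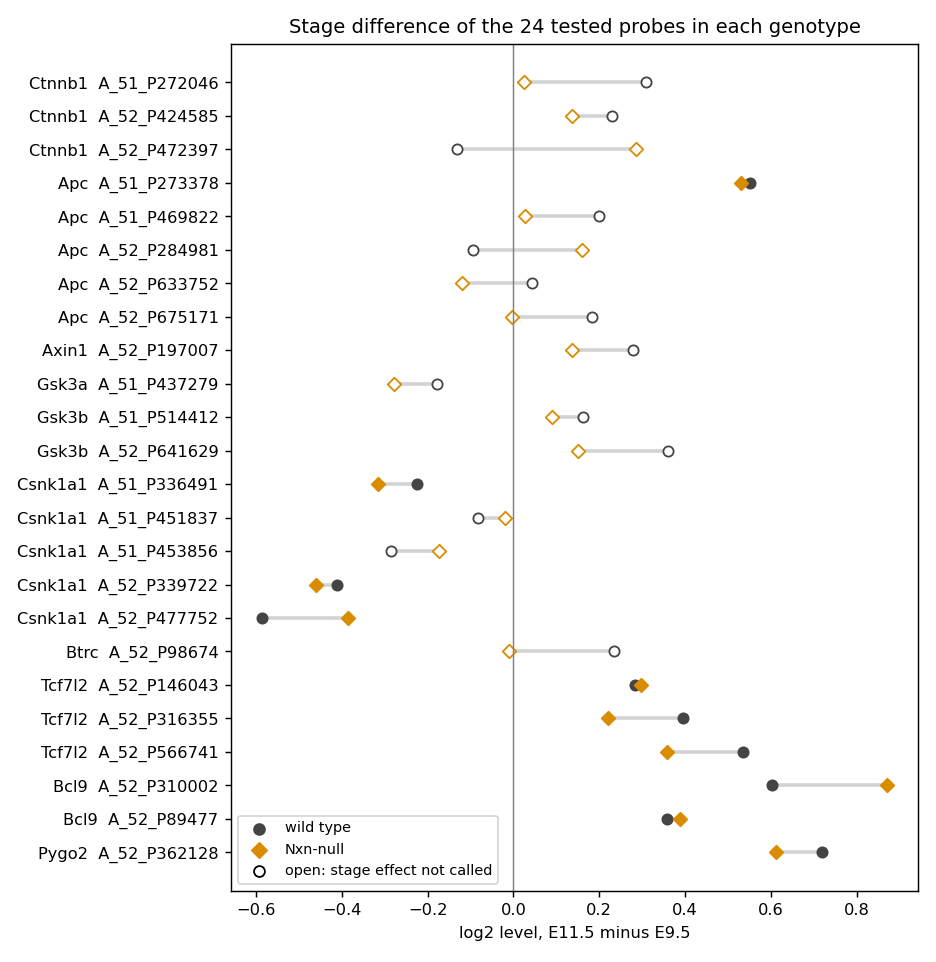
The E11.5 minus E9.5 difference of log2 intensity (horizontal axis) is plotted for the 24 tested probes, with circles for wild type and diamonds for null. Filled symbols mark probes whose shared stage effect was called. The 6 nuclear partner probes lie to the right of 0 in both genotypes, and the called Csnk1a1 probes lie to the left.

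The wider machinery of the pathway was read from 79 other listed genes, of which 77 were tested through their brightest probe. At E9.5, 10 of the 77 were called higher, against 8.8% of all tested probes, and 4 lower, against 13.5%, with a median ratio of 0.05. At E11.5, 1 was called higher, against 3.16%, and 3 lower, against 5.31%, with a median of -0.00. By role, 1 of 32 tested genes of the destruction complex and its regulators rose and 1 fell at E9.5, and none was called at E11.5. Among 34 tested nuclear partners, 8 rose and 2 fell at E9.5, while the E11.5 calls were 1 rise and 3 falls. Counted by the brightest probe of every gene, 1696 of 17161 were called higher and 2536 lower at E9.5. At E11.5 these counts were 629 and 968. The E9.5 rises of the 77 genes were all lost with the scanner software's log ratio, with median centring and without the dye term. Of 11 partners of beta-catenin at cell junctions, 1 rose and 1 fell at E9.5, and none was called at E11.5. The shared genotype effect was called by limma for 0 of the 77, and 5 reached an unadjusted p under 0.05, as did 1883 of all 24994 tested probes. Leaving out any 1 of the arrays left 0 or 1 called higher and 0 called lower at each stage.

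Groucho/TLE proteins bind TCF factors and repress their targets. Tle1 was called higher at both stages, by 0.20 at E9.5 (limma adjusted p = 0.0261) and by 1.07 at E11.5 (limma adjusted p = 4.17e-10). Tle2 and Tle3 were lower at E11.5, with ratios of -0.37 and -0.24, and Tle5, a short member of the family, was higher at E9.5 by 0.30. The histone acetyltransferase Ep300 was higher at E9.5 by 0.33, and the deacetylase Hdac1 was lower at E11.5 with a ratio of -0.41. At cell junctions, Ctnna2, the alpha-catenin of neurons, was higher at E9.5 by 0.24 and Cdh1, the epithelial cadherin, lower at the same stage with a ratio of -0.26. Sox17, an endoderm factor that binds beta-catenin, was lower at E9.5 with a ratio of -0.30, as was Ppp2r5a, a regulatory subunit of a protein phosphatase, with -0.23. Neuronal markers were higher and yolk sac endoderm markers lower in the same E9.5 null RNA, and their part in these ratios was not tested. With the scanner software's log ratio, none of these genes was called at either stage.

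**Figure D5:**
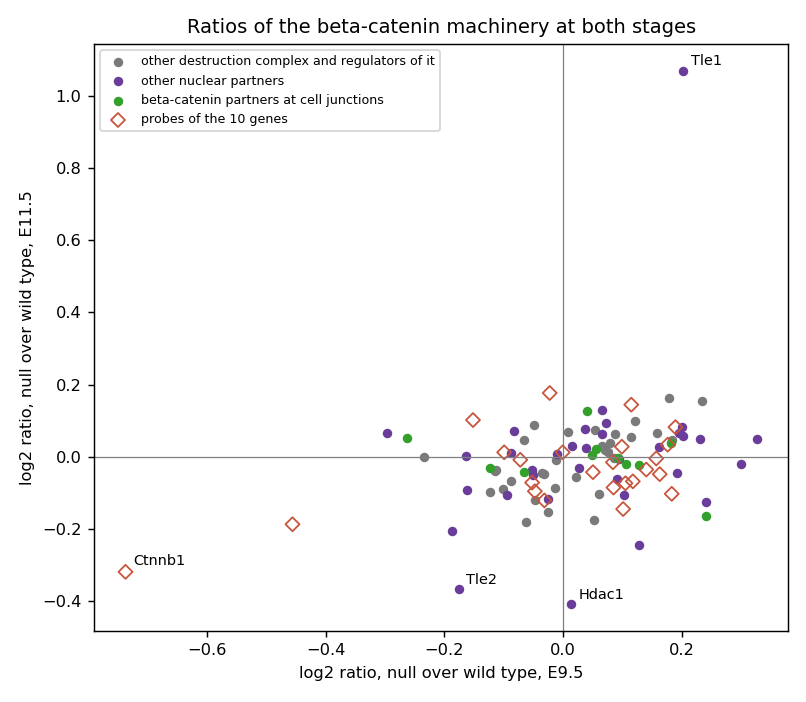
The log2 ratio of null over wild type at E9.5 (horizontal axis) is plotted against that at E11.5 (vertical axis) for the 77 other genes, coloured by role, and for the 24 probes of the 10 genes as open diamonds. Tle1 stands apart at E11.5 with 1.07, and Ctnnb1 probe A_52_P472397 stands apart at E9.5 with -0.74.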

How the data were processed

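Per the file headers, the deposited files give each spot's mean intensity in both channels with its local background, and a log10 ratio of red over green, written by Agilent Feature Extraction (version 9.1.3.1 in the headers, 9.5.3.1 in the submitters' processing notes). The authors' deposited value table equals the log10 ratio of the processed signals, turned to null over wild type, within a tolerance of 1e-04 for at least 99.9951% of probes, and was not centred further, with column medians from -0.0347 to 0.0408. The deposited log10 ratios, turned to log2, served as an alternative.

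Intensities were corrected by normexp (offset 50) and loess within arrays, with spots of a probe averaged. A total of 293 probes without a usable spot on some array were left out. A probe was tested if, at either stage, one genotype's signal was well above background on both arrays. limma 3.58.1 under R 4.3.3 (jsonlite 2.0.0 and the data.table package, version 1.17.8) fitted 1 ratio per stage plus a dye term to the 4 arrays, which leaves 1 residual degree of freedom. Its error is the mismatch of the dye-swap differences between stages, so the test compares the RNAs hybridised. The fit weighed that 1 degree of freedom against a prior of 18.0 pooled over all tested probes. At E9.5 the SE of the 24 probes ran only from 0.0632 to 0.0788. Single-channel levels used Aquantile normalization. Benjamini-Hochberg adjusted p-values under 0.05 were called. The replicate number marks the dye orientation per the labels, so same-numbered arrays deviated together (r = 0.73 across probes). The fits were tested on simulated data. Plots used matplotlib 3.10.9 under Python 3.11.15 with pandas 2.3.3.

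The members and lists were chosen with earlier results of these data known. Named were every probe of the 10 genes, Nxn, sex-linked genes, and, of the other machinery genes, those called in the same direction at both stages and the 3 higher and 3 lower of largest size among those called at each stage. RefSeq gave current symbols through an accession (22951 probes), a current symbol (6659) or a former one (3109), and 8455 probes were left with the name in their file. The files name no genome build, so only the RefSeq promoter windows carry coordinates.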

Additional observations from a re-analysis of the deposited data

Results flagged for a closer look

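A difference between the stages, tested as such, drew attention to 2 of the 24 tested probes, both of Ctnnb1. The count is not above the background, since 11.7% of all tested probes were called for this difference. The log2 ratio of null over wild type on A_52_P472397 was higher at E11.5 than at E9.5 by 0.42 (limma adjusted p = 0.00345), that is, it lay closer to 0 at the later stage. That call was lost with the Feature Extraction log ratio, with median centring, without the dye term and without any one of the arrays, where the value ran from 0.20 to 0.64. The ratio on A_51_P272046 was lower at E11.5 by -0.29 (limma adjusted p = 0.0492). This call was also lost under those settings, with an offset of 10, with no filter on dim probes and with the array-wide background, and the value ran from -0.65 to 0.0762 without 1 array. Without any 1 of the arrays neither difference was called, but those fits also had no dye term. The cause was not tested.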

How the results depend on the processing

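With the Feature Extraction log ratio, 0 probes of the 10 genes were higher and 1 was lower at E9.5 and 0 lower at E11.5, 0 differed between stages in either direction, and of the other machinery genes 0 were higher or lower at either stage. Median centring gave 0 higher and 1 lower at E9.5, 0 lower at E11.5, 0 stage differences, and 0 other genes higher or lower at E9.5 and 0 lower at E11.5. Without the replicate block (no dye term), all these counts were 0 except 1 other gene higher at E11.5. An offset of 10 and no filter on dim probes each gave 0 higher at E9.5, 0 probes whose ratio fell between stages, and 4 higher and 2 lower other genes at E9.5. The array-wide background, chosen after seeing the data, gave 0 higher and 1 lower at E9.5, 0 with a lower ratio at the later stage, and 4 higher and 2 lower other genes. With 1 brightest probe a gene, fewer probes were tested and 0 of the 10 genes were called in the ratio fits, with 4 higher and 0 lower by stage. Trend and robust moderation called 2 probes with a lower ratio at the later stage, the added one of Btrc (-0.25). Quantile normalization called 5 lower by stage, and Feature Extraction signals called 5 other genes higher by stage. Leaving out 1 array, which also drops the dye term of the ratio fits, gave 0 higher and 0 to 2 lower at E9.5, 0 lower at E11.5, 0 stage differences of the ratio, 4 to 7 higher and 1 to 4 lower by stage, and for the other genes 0 to 1 higher and 0 lower at E9.5, 0 to 1 higher and 0 lower at E11.5, and 7 to 12 higher and 9 to 21 lower by stage.

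Values that turned were Bcl9 A_52_P310002 at E9.5 (0.29 with the Feature Extraction log ratio, 0.26 with the array-wide background), Ctnnb1 A_51_P272046 at E9.5 (-0.0863 without E9.5 replicate 2, up to 0.45 without replicate 1) and in its stage difference (0.0762 without E11.5 replicate 1, down to -0.65 without replicate 2), and Csnk1a1 A_52_P477752 by stage (0.16 without E9.5 replicate 1, down to -1.13 without replicate 2). For these turns, the cause was not tested. Over all probes, 5570 calls at E9.5 became 1538 with the Feature Extraction log ratio, 919 with median centring, 540 without the dye term and 339 to 567 without 1 array. At E11.5, 2119 became 48, 298, 50 and 17 to 216 in that order, and 1321 with an offset of 10. For the difference between stages 2924 became 302, 510, 173 and 106 to 292, and 1949 with an offset of 10. The shared genotype effect went from 0 to 70 with 4 separate arrays, and the stage effect from 10603 to 6868 without E9.5 replicate 1 and 6959 without E11.5 replicate 2. Only 4 arrays were hybridised, which limits the precision of every value.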
